A study of Sus scrofa with 6 samples.

Results

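Aquaporins are membrane channels for water, and SLC34A2 is a sodium-phosphate cotransporter that can also carry silicic acid, the dissolved form of silicon. The 8 genes described here are AQP1, AQP3, AQP4, AQP7, AQP8, AQP10, AQP11 and SLC34A2. They were chosen by name, with earlier results of these data known, because the water given to the treated piglets was based on metasilicate. Their rows were found by matching pig Ensembl identifiers to gene symbols. Of the 8 genes, 7 had a row among the 21911 genes listed, and no identifier under the symbol AQP7 was found, so AQP7 was not analysed here. RNA had been sequenced from the gut of 6 pig (Sus scrofa) samples. The 3 SMP samples are those of the treatment group, which per the design text of the series drank an alkaline mineral water made with metasilicate, and the 3 Control samples are those of piglets without it. The sources used here do not state what Control piglets drank, the gut segment, breed, age and sex of the animals, or whether each sample came from its own piglet. The p-values therefore measure only the spread between the 6 samples, which may be technical in part.

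Water follows salt and sugar across the intestinal wall, partly between cells and partly through aquaporins in their membranes. Classical aquaporins such as AQP1, AQP4 and AQP8 pass mainly water, and AQP8 also passes ammonia and hydrogen peroxide. The aquaglyceroporins AQP3, AQP7, AQP9 and AQP10 pass glycerol and other small uncharged solutes as well, and the human forms of these genes have been shown to pass silicic acid. AQP11 is a distant relative found in membranes inside the cell. In the mammalian gut AQP8 is known from the surface of absorptive cells, AQP3 from their basolateral side, AQP10 from human small-intestinal enterocytes and AQP1 from blood and lymph vessels.

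The values were FPKM (fragments per kilobase and per 1000000 library fragments), a level per length that can be compared between genes. The whole numbers behind them gave library totals of 16816165 to 20712701 in SMP and 15927028 to 18636198 in Control, at which 3 reads in a gene of 1 kilobase make 0.145 to 0.188 FPKM. Control replicate 2 and SMP replicate 3 stood apart from the rest of their groups. Across the tested genes, Pearson correlations of log2 values were 0.990 between SMP replicates 1 and 2 and 0.977 between Control replicates 1 and 3, but 0.951 and 0.963 for SMP replicate 3 with the others of its group and 0.941 and 0.942 for Control replicate 2. Markers of both epithelium and smooth muscle were high: the 7 epithelial genes with a row summed to 2955 to 3001 FPKM in SMP and 2413 to 2978 in Control, and the 8 smooth muscle genes to 1594 to 2174 FPKM in SMP and 170 to 2781 in Control, where the muscle sum exceeded the epithelial sum in replicate 2 and was lowest in replicate 3. Of the 7 epithelial and 8 smooth muscle markers tested 0 changed by limma and 0 had an unadjusted p under 0.05. By voom, a fit of the same kind on the recovered reads, 0 changed. The median log2 difference, SMP minus Control, was 0.16 for the epithelial and 1.21 for the smooth muscle genes. With muscle levels so uneven in Control, the lack of calls does not mean equal muscle content. The 2 Y-linked genes with a row summed to 24.4 to 31.0 FPKM in SMP and 0 to 0.187 in Control, so sex and treatment cannot be told apart for any gene below. Differences are SMP minus Control in log2(FPKM + 1), tested with limma over the 11471 genes that averaged 1 FPKM or more, and a gene was called changed at a Benjamini-Hochberg adjusted p under 0.05. The median difference of all tested genes was 0.09.

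Of the 7 genes with a row, 5 passed the filter on low values (AQP1, AQP3, AQP8, AQP10 and AQP11), and AQP4 and SLC34A2 did not. AQP8 was called lower in SMP, and 0 of the 5 were called higher by limma or by voom. At an unadjusted p under 0.05, AQP8 and AQP10 were lower and AQP1 higher. No share of all tested genes at that unadjusted threshold is given, here or for the lists below, so such counts have no background. Over all tested genes, 2.1% were called lower and 3.5% higher, 5.6% in either direction (2.35%, 4.22% and 6.57% by voom). That was 401 higher and 241 lower genes, against 297 higher and 422 lower with median-ratio scaling, where AQP8 was again the 1 aquaporin called. In 2 of the 5, AQP8 and AQP10, every SMP value lay below every Control value, which held for 11.5% of all tested genes. In AQP1 every SMP value lay above every Control value, which held for 21.1% of all tested genes. Either kind of separation held for 32.6%.

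**Figure D1:**
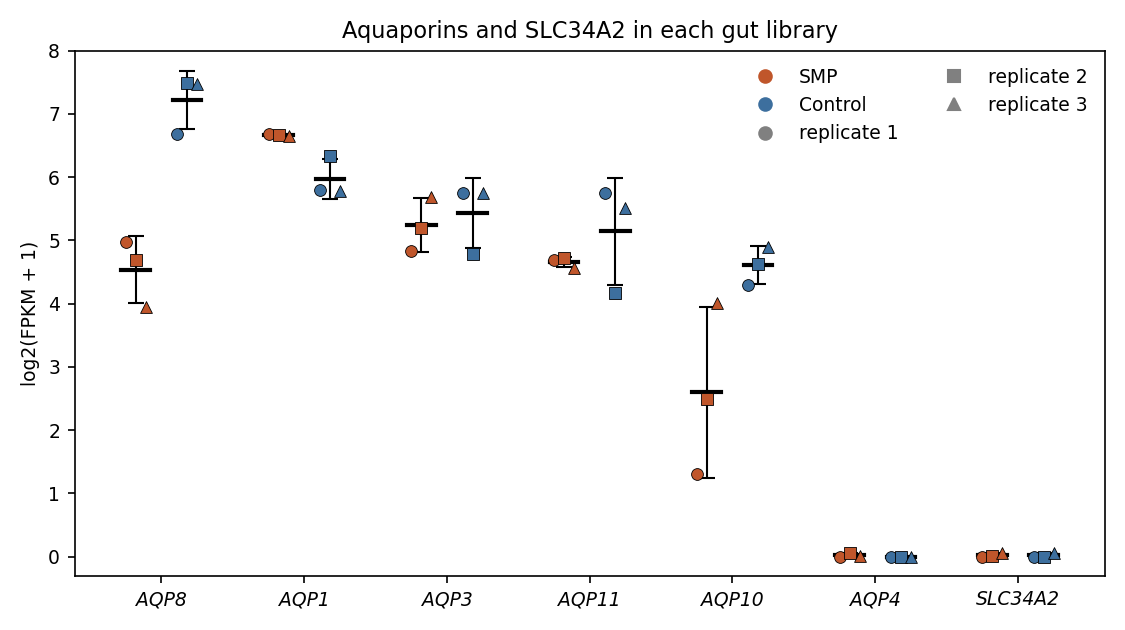
Level of each gene with a row, as log2(FPKM + 1) on the vertical axis, in the 3 SMP libraries (left of each pair) and the 3 Control libraries (right); the symbols mark the replicate, the long bar the mean and the whiskers 1 SD over the 3 libraries. AQP8 and AQP10 lie lower in SMP with no overlap, AQP1 lies higher with no overlap, AQP3 and AQP11 overlap, and AQP4 and SLC34A2 lie at or near 0 in every library.

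AQP8 (ENSSSCG00000031865), the channel of the absorptive surface, was the aquaporin with the largest difference. It was at 30.5, 24.8 and 14.4 FPKM in SMP replicates 1, 2 and 3, against 102, 179 and 178 FPKM in Control replicates 1, 2 and 3. Its lowest Control library was still well above its highest SMP library. The SMP mean of 23.3 ± 8.17 FPKM was 15.2% of the Control mean of 153 ± 44.0 FPKM (SD, n = 3 each), a 6.57-fold fall (log2 difference -2.68, SE 0.33, limma adjusted p = 0.0132). These values rest on 3993 reads in SMP and 22515 in Control, so counting error is small beside the spread between libraries. Among all listed genes by FPKM, AQP8 ranked between 1697 and 3126 in SMP libraries, but between 291 and 521 in Control libraries. In bulk tissue, fewer cells that express a gene and less RNA of it per cell cannot be told apart. The call was lost without SMP replicate 2 (log2 difference -2.76, adjusted p = 0.0632) and without Control replicate 3 (-2.55, adjusted p = 0.0764).

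Markers of gut segments moved between the same groups. Their lists were chosen with earlier results of these data known, and over all tested genes 3.5% were called higher and 2.1% lower. All 4 tested markers of the large intestine rose (SLC26A3, OTOP2, CA4 and BEST4), and the summed level of the 5 with a row was 65.9 to 86.5 FPKM in SMP and 7.09 to 14.0 in Control. SLC26A3, with a mean of 0.475 FPKM in Control, passed the filter only through its SMP values, so its call is not counted as support. Of 7 tested markers of the proximal small intestine, GIP and MLN fell by limma, 3 fell by voom and 0 rose by either. Voom called 2.35% of all tested genes lower. At an unadjusted p under 0.05, 4 of the 7 were lower and 0 higher. The 7 summed to 105 to 128 FPKM in SMP and 197 to 528 in Control, lowest in Control replicate 2. CYBRD1 was at 47.2 ± 8.58 FPKM in SMP and 161 ± 77.5 in Control (limma adjusted p = 0.0604). SLC40A1 was at 4.76 ± 3.37 FPKM in SMP and 64.8 ± 51.6 in Control (limma adjusted p = 0.0820). These lay lower in SMP without overlap, while ONECUT2, SLC11A2 and GATA4 overlapped. MLN was at 0.0203, 0.0101 and 0.0125 FPKM in SMP and 3.52, 0.756 and 2.71 in Control, from 4 and 566 reads. With a mean of 1.17 FPKM over all libraries, it passed the filter only through its Control values, so its call is not counted as support. GATA4, a transcription factor gene of the proximal small intestine chosen after its values were seen, was at 27.2 ± 4.86 FPKM in SMP and 27.4 ± 4.60 in Control (adjusted p = 0.971). Markers of the ileum went both ways. Of 3 tested, AMN and NR0B2 fell, while FABP6, the ileal bile acid binding protein gene, was at 33.4, 50.8 and 3.60 FPKM in SMP, against 0.584, 3.85 and 9.15 FPKM in Control (log2 difference 2.24, adjusted p = 0.222). Of the 3 under the filter, the bile acid carrier gene SLC10A2 (1.39 ± 0.196 FPKM in SMP and 0.208 ± 0.0200 in Control) and CUBN, a vitamin receptor gene (0.809 ± 0.714 FPKM in SMP and 0.0298 ± 0.0258 in Control), lay higher in SMP without overlap, and the hormone gene FGF19 (0.112 ± 0.101 FPKM in SMP and 0.529 ± 0.110 in Control) lower, with no test. The ileal list summed to 65.1 to 113 FPKM in SMP and 116 to 146 in Control. No segment marker with a row was at 0 in every library. SLC26A3 and OTOP2 passed without each single library, whereas CA4, AMN and NR0B2 were lost without SMP replicate 1, SMP replicate 2, Control replicate 1 or Control replicate 3 (NR0B2 also without Control replicate 2), GIP without SMP replicate 2 or Control replicate 3, MLN without any 1 SMP replicate and BEST4 without any 1 library, with adjusted p-values of 0.0518 to 0.178. Without Control replicate 1 or Control replicate 3, or with a mean of at least 5 FPKM, MLN missed the filter and was not tested. With no filter CA4, AMN, NR0B2, MLN and BEST4 did not pass, nor did MLN and BEST4 with quantile normalization. The part of segment or cell make-up in the fall of AQP8 was not tested.

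AQP10 (ENSSSCG00000006551), an aquaglyceroporin of enterocytes in humans, had the next largest difference but missed the threshold. It was at 1.48, 4.60 and 15.1 FPKM in SMP replicates 1, 2 and 3, against 18.7, 23.8 and 28.7 FPKM in Control replicates 1, 2 and 3. The SMP libraries were therefore far more uneven than the Control libraries, with 10.2-fold between the highest and the lowest in SMP and 1.53-fold in Control. The means were 7.05 ± 7.12 FPKM in SMP and 23.8 ± 5.01 in Control (log2 difference -2.01, SE 0.62, 95% interval -3.47 to -0.55, adjusted p = 0.102). SMP replicate 1 held 32 reads of the gene and SMP replicate 3 held 266, so the spread within SMP is not one of counting alone. Without SMP replicate 3, AQP10 was called lower (log2 difference -2.71, adjusted p = 0.0256), in a fit that called 2.49% of tested genes lower. SMP replicate 3 was the SMP library nearest to Control, so leaving it out could only widen the difference.

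AQP3 (ENSSSCG00000040513), the aquaglyceroporin of the basolateral membrane, overlapped between the groups. It was at 27.7, 35.5 and 50.8 FPKM in SMP replicates 1, 2 and 3, against 53.1, 26.7 and 52.7 FPKM in Control replicates 1, 2 and 3. SMP replicate 3 was close to 2 of the Control libraries, and Control replicate 2 was the lowest of all 6. The difference was -0.19 (SE 0.33, 95% interval -0.97 to 0.59, adjusted p = 0.752), so the data allow a change in either direction. Without both SMP replicate 3 and Control replicate 2, AQP3 was called lower (-0.74, adjusted p = 0.0239), in a fit that called 10.8% of tested genes lower. Those are the highest SMP and the lowest Control library of AQP3, so leaving them out parts the groups by itself. That call is therefore not separate evidence of a difference.

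Set together, the genes whose human forms pass silicic acid did not show 1 direction that passed a test. AQP10 and AQP3 were as above. AQP9 (ENSSSCG00000004597), the aquaglyceroporin of liver and white blood cells, was at 0.0617, 0.0439 and 0.0973 FPKM in SMP and 0.0456, 0 and 0.0195 FPKM in Control, with 21 and 6 reads in all, too few for the filter. AQP7 could not be placed. In the RefSeq annotation of assembly Sscrofa11.1, AQP7 is the next gene to AQP3, and no listed gene overlaps any of the 7 genes with a row there.

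AQP11 (ENSSSCG00000014880), the intracellular aquaporin, was even in SMP and uneven in Control. It was at 24.8, 25.4 and 22.7 FPKM in SMP replicates 1, 2 and 3, against 52.8, 17.0 and 44.6 FPKM in Control replicates 1, 2 and 3. Control replicate 2, in which AQP3 was lowest too, lay below every SMP library and the other Control libraries above every one. It was also the library with the highest smooth muscle sum and the lowest epithelial sum, whose part in these values was not tested. The means were 24.3 ± 1.43 FPKM in SMP and 38.1 ± 18.7 in Control (log2 difference -0.48, SE 0.39, 95% interval -1.41 to 0.45, adjusted p = 0.486). Without Control replicate 2 the gene was called lower in SMP (-0.97, SE 0.15, adjusted p = 0.0245), and in that fit 4.6% of tested genes were called lower. Leaving out the lowest Control library could only widen the difference.

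AQP1 (ENSSSCG00000033190), the water channel of vessel walls and red blood cells, was the highest aquaporin in SMP. It was at 102, 101 and 100.1 FPKM in SMP replicates 1, 2 and 3, against 54.4, 80.0 and 53.8 FPKM in Control replicates 1, 2 and 3. The SMP libraries were almost equal, and Control replicate 2 was the nearest to them. The SMP mean of 101 ± 1.03 FPKM was 1.61 times the Control mean of 62.7 ± 14.9 (log2 difference 0.70, SE 0.19, 95% interval 0.26 to 1.14, adjusted p = 0.0756). It therefore missed the threshold, and it passed without Control replicate 2 (0.89, adjusted p = 0.0232), where 4.66% of tested genes were called higher. As that was the Control library nearest to SMP, leaving it out could only widen the difference.

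Of 9 tested endothelial markers 0 changed by limma, 0 had an unadjusted p under 0.05 and 0 changed by voom. Their summed level was 37.5 to 50.7 FPKM in SMP and 34.8 to 72.3 in Control. PECAM1, the adhesion molecule of endothelium, was at 7.56 ± 1.09 FPKM in SMP and 7.67 ± 2.12 in Control (adjusted p = 0.997). Per length, AQP1 was higher than every marker of that list in every library. Red blood cell markers were low: HBB, a globin gene, was at 1.92, 3.99 and 17.0 FPKM in SMP and 17.6, 16.5 and 11.0 FPKM in Control (adjusted p = 0.242). The erythroid list of 4 genes with a row summed to 1.97 to 17.8 FPKM in SMP and 12.0 to 18.3 in Control, and SLC4A1, the red cell anion exchanger, had 0 reads in SMP and 2 in Control. The part of either cell type in the AQP1 values was not tested.

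AQP4 (ENSSSCG00000035965), the channel of gastric parietal cells, glia and muscle, was almost not read. It was listed at 0, 0.0421 and 0.00865 FPKM in SMP replicates 1, 2 and 3, from 0, 6 and 1 reads, and at 0 in each Control library. Of 5 glial markers with a row, 1 passed the filter, and the list summed to 2.59 to 4.39 FPKM in SMP and 0.310 to 6.71 in Control. The acid pump subunit gene ATP4B of parietal cells was at 0 to 0.0463 FPKM in SMP and 0.121 to 0.309 in Control. The other aquaporins with a row were also under 1 FPKM in every library. AQP5, known from glands, was at 0.0663 to 0.327 FPKM in SMP and 0.128 to 0.517 in Control. AQP6, of kidney, was at 0 to 0.0488 FPKM in SMP and 0 to 0.206 in Control, and MIP, the lens aquaporin, had 1 read in SMP and 0 in Control. None of AQP4, AQP5, AQP6, AQP9 and MIP passed the filter, so no test was made of them.

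Because FPKM is a level per length, the aquaporins can be set side by side within a library. In every SMP library AQP1 was the highest, and in every Control library AQP8 was. AQP8 made up 16.4%, 13.0% and 7.08% of the summed FPKM of the 10 aquaporins with a row in SMP replicates 1, 2 and 3, against 36.2%, 54.8% and 49.6% in Control replicates 1, 2 and 3. AQP1 made up 54.7%, 52.6% and 49.2% in SMP and 19.3%, 24.5% and 15.0% in Control. The ratio of AQP1 to AQP8 was thus 3.34, 4.05 and 6.95 in SMP, against 0.533, 0.447 and 0.303 in Control. The sum itself was 187, 191 and 204 FPKM in SMP and 282, 326 and 358 FPKM in Control, and it holds the same AQP8 values as above.

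**Figure D2:**
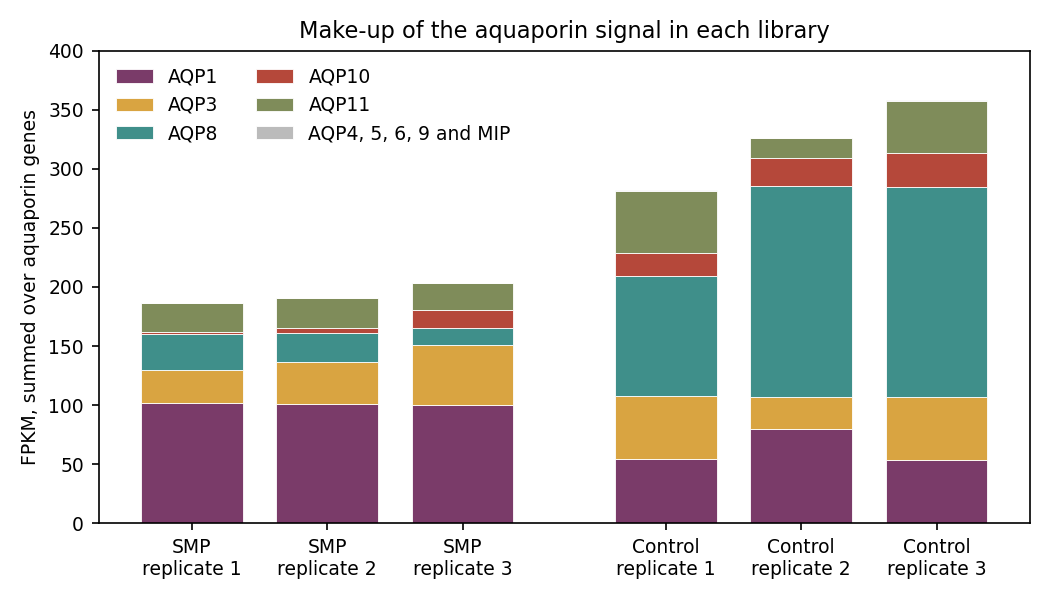
Summed FPKM of the 10 aquaporin genes with a row, split by gene, in each of the 3 SMP libraries (left) and 3 Control libraries (right). In the SMP libraries AQP1 is the largest part (49.2% to 54.7%) and AQP8 a small one (7.08% to 16.4%), while in the Control libraries AQP8 is the largest (36.2% to 54.8%).

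In SMP the mean levels ran from AQP1 through AQP3, AQP11 and AQP8 to AQP10. AQP1 stood clear of all the others. The range of AQP8 overlapped those of AQP3, AQP11 and AQP10, whereas AQP3 lay just above AQP11, and AQP11 above AQP10. In Control the order was AQP8, AQP1, AQP3, AQP11 and AQP10. There AQP8 stood clear of AQP1 (54.4, 80.0 and 53.8 FPKM), AQP1 lay just above the highest AQP3 library, and AQP3, AQP11 and AQP10 overlapped. Shares and orders of this kind describe the libraries and were not tested.

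SLC34A2 (ENSSSCG00000008758), the sodium-phosphate cotransporter that is the main one of the small-intestinal brush border in mice, was hardly read in this tissue. It was at 0, 0.0126 and 0.0467 FPKM in SMP replicates 1, 2 and 3, from 0, 1 and 3 reads, against 0, 0 and 0.0422 FPKM in Control replicates 1, 2 and 3, from 0, 0 and 3 reads. No library held more than 3 reads of it, so a difference between the groups was not detectable at this depth. The other sodium-phosphate cotransporter of the family with a row, SLC34A3 (ENSSSCG00000040105), was among the well-read genes. SLC34A3, known from the kidney in mammals, was at 73.7, 79.9 and 131 FPKM in SMP, against 202, 208 and 249 FPKM in Control. All SMP libraries lay below all Control libraries, the means being 94.8 ± 31.4 FPKM in SMP and 219 ± 25.4 in Control, a 2.32-fold fall (log2 difference -1.24, SE 0.24, adjusted p = 0.0359). The assignment of rows to SLC34A2 and SLC34A3 rests on the symbol table alone, and how reads that map to several genes were handled is not stated in the sources used here. The SLC34A3 call was lost without SMP replicate 1 (adjusted p = 0.146), SMP replicate 2 (0.159), Control replicate 1 (0.0831) or Control replicate 3 (0.152), with no filter (0.0734) and with quantile normalization (0.0648), all with the same direction.

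The other phosphate transporters moved differently. SLC20A1, a phosphate importer of most cells, was at 16.9, 15.7 and 15.3 FPKM in SMP, against 6.67, 9.51 and 9.96 FPKM in Control, a 1.83-fold rise (log2 difference 0.82, SE 0.17, adjusted p = 0.0436). Leaving out any 1 library other than Control replicate 2 ended this call, with adjusted p-values from 0.0536 to 0.174, as did no filter (0.0761), quantile normalization (0.0604) and median-ratio scaling (0.0679). SLC20A2, its close relative, was at 3.93 ± 1.01 FPKM in SMP and 2.69 ± 0.851 in Control (adjusted p = 0.299). The phosphate exporter XPR1 was at 1.91 ± 0.876 FPKM in SMP and 1.82 ± 0.787 in Control (adjusted p = 0.936). Of the 7 tested partners and regulators of these carriers 0 changed by limma, 1 had an unadjusted p under 0.05 and 0 changed by voom, with a median difference of -0.07. The scaffold gene NHERF4 had the smallest p among them, at 17.0, 17.6 and 14.9 FPKM in SMP against 23.4, 22.5 and 31.8 FPKM in Control (adjusted p = 0.0863), and NHERF2, another scaffold, was at 13.4 ± 1.82 FPKM in SMP and 16.7 ± 5.04 in Control (adjusted p = 0.487). The vitamin D receptor gene VDR, chosen after its values were seen, was at 57.5 ± 18.3 FPKM in SMP and 59.5 ± 12.6 in Control.

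AQP3, AQP7 and AQP10 carry glycerol, which cells make from stored fat and rebuild into glycerides. Of 14 tested genes of glycerol and glyceride handling, 2 rose and 3 fell, with a median difference of -0.16 against 0.09 for all tested genes. Limma called 3.5% of all tested genes higher and 2.1% lower. As the list was chosen with earlier results of these data known, its counts do not test it. The lipase genes PNPLA2 and LIPE, which break down stored triglyceride, were at 50.7 ± 8.41 FPKM in SMP against 91.1 ± 5.94 in Control and at 2.54 ± 0.127 FPKM in SMP against 5.08 ± 0.823 in Control (log2 differences -0.85 and -0.77, adjusted p = 0.0387 and 0.0332). GPD1, the cytosolic glycerol phosphate dehydrogenase, was at 6.03 ± 0.347 FPKM in SMP and 9.91 ± 0.342 in Control (-0.64, adjusted p = 0.0335).

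The 2 that rose were LPL and GPAM. LPL, the lipase of the vessel wall, was at 17.4 ± 2.26 FPKM in SMP and 7.09 ± 1.63 in Control, a 2.45-fold rise (log2 difference 1.20, adjusted p = 0.0246). GPAM, which starts glyceride synthesis from glycerol phosphate, was at 6.98 ± 0.718 FPKM in SMP and 4.02 ± 0.599 in Control (0.67, adjusted p = 0.0486). All 5 calls were lost without SMP replicate 1, SMP replicate 2, Control replicate 1 or Control replicate 3, that of GPAM also without SMP replicate 3 and that of PNPLA2 also without Control replicate 2, with adjusted p-values of 0.0509 to 0.204. With no filter all 5 missed the threshold, and GPAM also with a mean of at least 5 FPKM, quantile normalization or median-ratio scaling. Fat cell markers were uneven: ADIPOQ was at 0.0504, 1.19 and 0 FPKM in SMP and 0.0327, 4.37 and 0.530 in Control. The 5 fat cell genes with a row summed to 23.2 to 40.8 FPKM in SMP and 54.6 to 57.6 in Control, without overlap. Most of that sum was CIDEC, a lipid droplet gene, at 21.5, 29.6 and 39.7 FPKM in SMP, against 53.3, 41.0 and 54.2 FPKM in Control (adjusted p = 0.123), and 0 of the 3 tested changed by limma or voom (1 with an unadjusted p under 0.05). Their part in the glyceride genes was not tested.

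Genes of the salt and sugar transport that draws water were tested beside the aquaporins. Of 17 tested, 4 rose and 0 fell by limma and by voom. At an unadjusted p under 0.05, 7 were higher and 1 lower, with no share of all tested genes at that threshold to set them against. Over all tested genes, limma called 3.5% higher and 2.1% lower (4.22% and 2.35% by voom). The median difference of the 17 was 0.43, against 0.09 for all tested genes. The list was chosen with earlier results of these data known, so these counts and this median do not test it. SLC26A3, which exchanges chloride for bicarbonate at the cell surface, had the largest difference, at 19.9 ± 0.899 FPKM in SMP and 0.475 ± 0.0956 in Control (log2 difference 3.82, adjusted p = 1.71e-05). KCNE3 (0.85, adjusted p = 0.0336), a potassium channel subunit of chloride secretion, SLC4A4 (1.00, adjusted p = 0.0413), a basolateral bicarbonate carrier, and BEST4 (1.01, adjusted p = 0.0490), an anion channel, were the others. SLC26A3 and BEST4 are also in the list of large intestine markers above, so those 2 calls stand in both lists, and the part of gut segment in this list was not tested. The sugar carrier SLC5A1, which also moves water, was at 127 ± 66.2 FPKM in SMP and 98.8 ± 24.4 in Control (adjusted p = 0.697). The chloride channel gene CFTR was at 6.20, 6.53 and 9.30 FPKM in SMP and 17.4, 6.11 and 14.3 FPKM in Control (adjusted p = 0.338). The values of SLC5A1 and CFTR were given because of what they encode, and were chosen after they were seen. SLC26A3 passed in all 15 other settings, but it met the filter only through its SMP values, so its call is not counted as support. KCNE3 lost its call in 6 of them and SLC4A4 in 9, both including the fits without SMP replicate 1 or 2 or Control replicate 1 or 3 and SLC4A4 also that without SMP replicate 3 (adjusted p = 0.0656 to 0.160). With no filter neither passed, and SLC4A4 did not with quantile normalization or median-ratio scaling. BEST4 lost its call in 12, which besides each single library were no filter (0.0946), pseudocounts of 0.1 (0.0523) and 0.5 (0.0507), quantile normalization (0.0566), median-ratio scaling (0.0664) and 1 further setting.

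**Figure D3:**
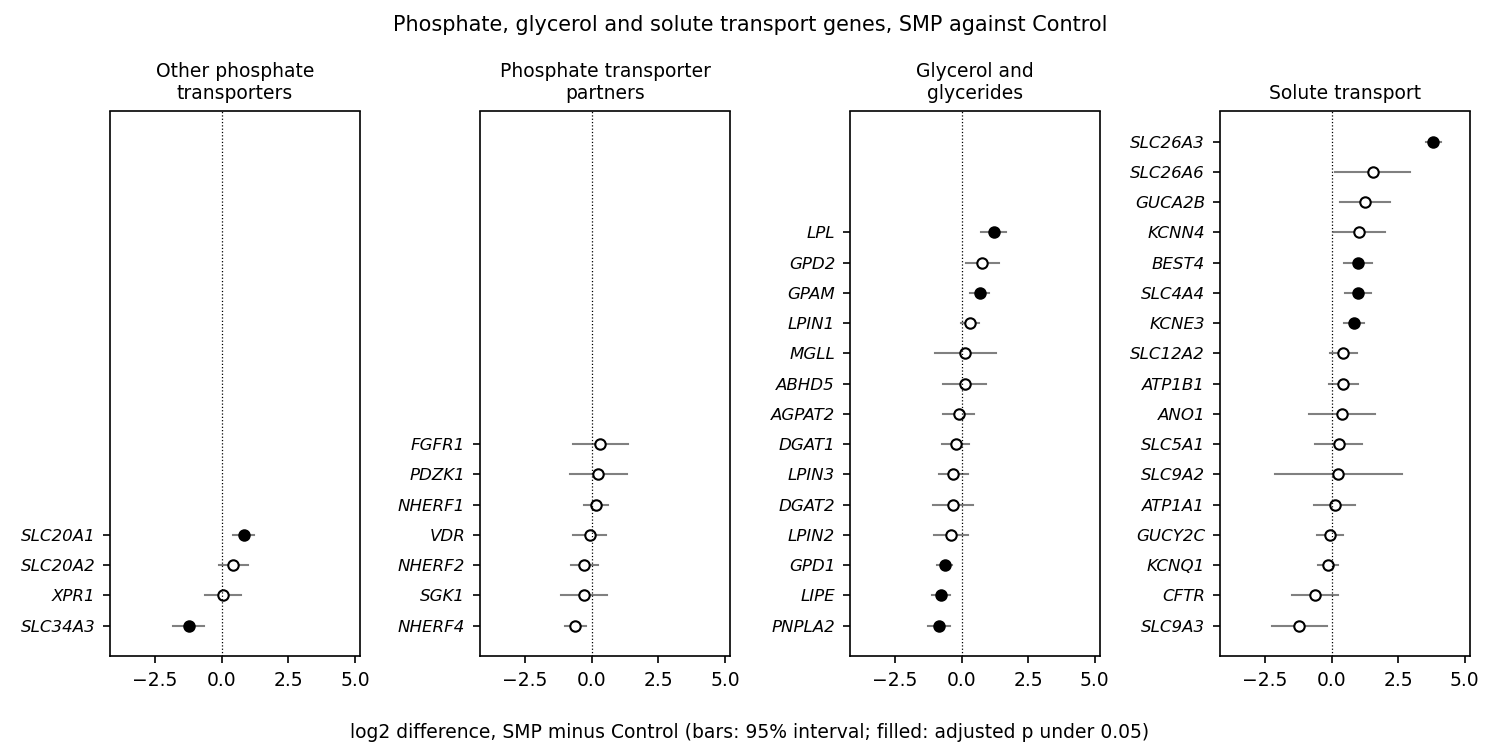
Log2 difference, SMP minus Control, of each tested gene of 4 lists, with its 95% interval; filled circles passed an adjusted p of 0.05. SLC34A3 lies left of 0 and SLC20A1 right of it, glyceride genes lie on both sides, and the filled circles among solute transport genes all lie to the right.

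The difference of each tested aquaporin was also computed under 15 other settings. AQP8 was lower in SMP in all 15, by -2.95 to -2.25, and passed in 13. AQP10 was lower in all 15 (-2.71 to -1.36) and passed in 2, AQP11 lower in all 15 (-0.97 to -0.18) and passed in 2, and AQP1 higher in all 15 (0.58 to 0.89) and passed in 2. AQP3 was lower in 14 and at 0.0092 without SMP replicate 1. Where the groups do not overlap, as in AQP8, AQP10 and AQP1, leaving out libraries cannot turn the sign. The passes of AQP10, AQP11, AQP3 and AQP1 came only from fits without a library that lay nearest the other group.

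**Figure D4:**
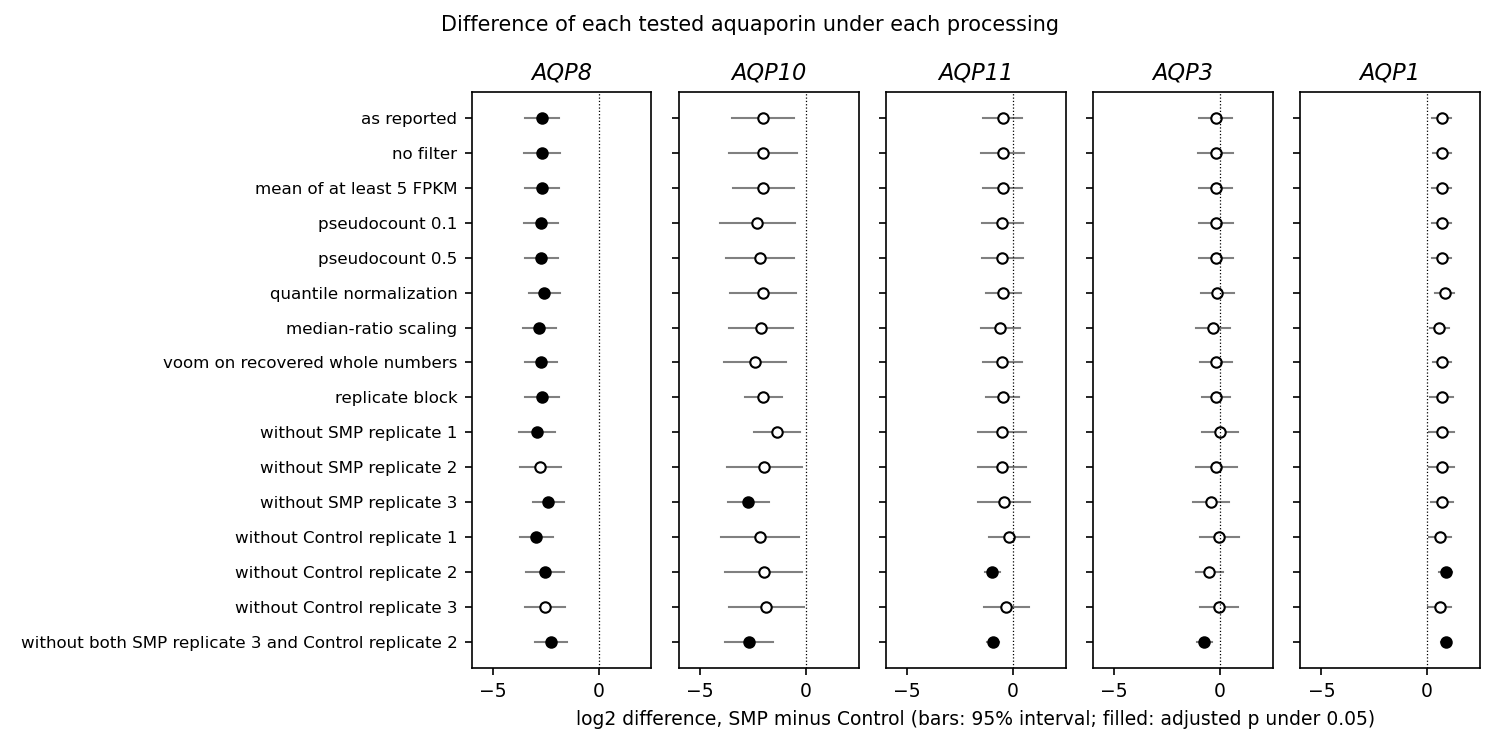
Log2 difference, SMP minus Control, of the 5 tested aquaporins (1 panel each) as reported and under 15 other settings (rows), with 95% intervals; filled circles passed an adjusted p of 0.05. AQP8 is filled in all rows except those without SMP replicate 2 or Control replicate 3, and AQP10, AQP11, AQP3 and AQP1 are filled only in rows that leave out SMP replicate 3, Control replicate 2 or both.

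The genes whose levels ran most like each aquaporin over the 6 libraries were found by Pearson correlation of log2(FPKM + 1) among 9973 other tested genes with a symbol. These correlations describe 6 libraries that share the same groups and the same outlying replicates. Nearest to AQP8 were EEF1D, a translation elongation factor subunit (r = 0.998), PYCARD, the inflammasome adaptor (0.998), and ACAA1, a peroxisomal thiolase (0.996). PYCARD was at 185, 177 and 148 FPKM in SMP and 251, 300.1 and 308 in Control, so its order over the libraries was near that of AQP8 but its range much smaller. Nearest to AQP10 were MFGE8, a secreted milk fat globule protein (0.991), PHYH, a peroxisomal hydroxylase (0.990), and ACOT12, an acyl-CoA thioesterase (0.984). PHYH was at 17.0, 24.9 and 62.4 FPKM in SMP and 66.0, 69.8 and 96.6 in Control, with SMP replicate 3 near the Control libraries as in AQP10.

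Nearest to AQP1 were MTHFD1, an enzyme of folate metabolism (r = 0.994), NUCKS1, a chromatin protein (0.992), and RNF144A, a ubiquitin ligase (0.990). Among the nearest to AQP3 were CDS1, an enzyme of phospholipid synthesis (0.991), and AZIN1, a regulator of polyamine synthesis (0.991). Nearest to AQP11 were TKFC, a triose kinase (0.999), SERPINF2, a protease inhibitor (0.992), and MPZL2, an adhesion molecule (0.991). With 6 libraries, high values are common: 80 genes (0.802%) had r over 0.9 with AQP10, 278 (2.79%) with AQP11, 306 (3.07%) with AQP3, 325 (3.26%) with AQP8 and 347 (3.48%) with AQP1. Between the aquaporins themselves r was negative in the 4 pairs with AQP1, at -0.80 with AQP8, -0.80 with AQP11, -0.70 with AQP10 and -0.57 with AQP3. In the other 6 pairs it ran from 0.015 for AQP3 with AQP8 to 0.64 for AQP8 with AQP10 and 0.74 for AQP3 with AQP11, both low in Control replicate 2.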

How the data were processed

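The authors deposited FPKM, 1 value per gene and library, for 21911 genes. The submitters' processing notes name HISAT2 2.0.5, StringTie and DESeq2 1.16.1 without saying what each did, and a mouse build, mm10, although the identifiers are those of pig genes in Ensembl. The build is therefore unsettled, and no coordinates are given. Per the labels' protocols, libraries were made with a NEBNext Ultra kit; strand and multi-mapping rules are not stated.

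Each FPKM was a whole number over a gene length and a library total, and these numbers, recovered for 21911 of 21911 genes (relative tolerance 5e-09), are the reads given. Each may stand for a read or for a pair of reads. Symbols matched 14153 identifiers. The members and lists were chosen with earlier results of these data known, so counts of calls within a list do not test that list. Values were tested as log2(FPKM + 1), pseudocount 1, with limma 3.58.1 in R 4.3.3 (treatment only, trended empirical Bayes). This step was also run on simulated data that lacked the outlying replicates seen here, so that run does not vouch for the calls. Genes named were all members, other aquaporins and phosphate transporters, list genes that passed plus up to 2 with the smallest p, and the 3 genes most like each tested member, of which 1 is not reported here. PECAM1, SLC4A1, ATP4B, CYBRD1, SLC40A1, ONECUT2, SLC11A2 and the ileal genes that did not pass were named after their values were seen. A count test had been named for count data and was not run, as the values are FPKM. The other settings were also run on named genes outside the members, a choice made after seeing the data. Libraries of a group differed by 12.7 to 103 times counting noise (chi-square over degrees of freedom).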

Additional observations from a re-analysis of the deposited data

How the results depend on the processing

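AQP8 was lower in SMP in all 15 other settings, and its adjusted p was between 0.00948 and 0.0764. The counts moved with the samples used. Of the members, 0 to 1 were called higher and 0 to 4 lower when libraries were left out, with 1 higher and 4 lower without both SMP replicate 3 and Control replicate 2. Over all genes, leaving out libraries gave 20 to 1808 higher (0.175% to 15.8% of tested genes) and 20 to 1235 lower (0.173% to 10.8%). The highest counts and shares came from the fit without those 2 libraries. With no filter 158 genes were higher and 100 lower, and a mean of at least 5 FPKM left 241 higher, fewer genes being tested. Median-ratio scaling gave 297 higher and 422 lower, so that 41.3% of calls were higher instead of 62.5%. It shifted the median difference of all genes to -0.01, against 0.09, and no tested aquaporin changed direction. The replicate number as a block gave 115 higher and 121 lower genes, with AQP8 still called (adjusted p = 0.0200) and AQP10 at 0.0506. Whether same-numbered samples belong together is not stated in the sources used here. Their deviations from the group means correlated at -0.31, 0.32 and -0.04, and those of differently numbered samples at -0.31 to 0.38. These values cannot decide whether the samples were paired. The block also ended the calls of SLC20A1, LIPE, GPD1, PNPLA2, GPAM, KCNE3, SLC4A4, BEST4 and NR0B2.

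Differences near 0 turned sign, and none was called with the turned sign. Leaving out libraries gave -0.74 to 0.0092 for AQP3, -0.67 to 0.14 for CBLIF, -0.62 to 0.15 for EGFL7, -0.39 to 0.026 for NHERF2, -0.31 to 0.22 for SOX10 and -0.43 to 0.23 for XPR1. Quantile normalization gave -0.073 for SOX10 and -0.084 for XPR1, and median-ratio scaling -0.026 for XPR1. The causes were not tested. Depth limits AQP4 and SLC34A2, which had at most 6 reads in a library.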

Other observations

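AQP8 also passes hydrogen peroxide, and the genes that make and remove peroxide moved in both directions. Of 11 tested, GPX2 rose and NOXO1 fell, with a median difference of 0.00. Over all tested genes 3.5% were called higher and 2.1% lower. GPX2, the glutathione peroxidase of the gut epithelium, was at 83.4, 77.1 and 62.1 FPKM in SMP, against 31.9, 19.5 and 26.3 FPKM in Control (log2 difference 1.50, SE 0.21, limma adjusted p = 0.0190). NOXO1, the organizer subunit of the NADPH oxidase NOX1, was at 3.45, 3.37 and 5.15 FPKM in SMP, against 16.6, 8.92 and 17.8 FPKM in Control (-1.59, SE 0.28, adjusted p = 0.0287). The oxidase gene NOX1 itself was at 0.335, 0.552 and 0.906 FPKM in SMP, against 0.0598, 0.0296 and 0.0383 FPKM in Control, from 141 and 9 reads, too low for the filter. Also under the filter, DUOX2 was at 0.531 ± 0.0365 FPKM in SMP and 0.158 ± 0.106 in Control, without overlap. DUOXA2, under it too, was at 0.105 ± 0.0411 FPKM in SMP and 0.0442 ± 0.0287 in Control, with overlap. CAT, the catalase gene, was at 34.1 ± 1.44 FPKM in SMP and 66.6 ± 19.7 in Control (SD, n = 3 each; adjusted p = 0.0772). NOX1, DUOX2, DUOXA2 and CAT were chosen after their values were seen. The GPX2 call was lost without SMP replicate 1, SMP replicate 2 or Control replicate 3 (0.0976 to 0.104), and that of NOXO1 with no filter (0.0649) or without SMP replicate 1, SMP replicate 2, Control replicate 1 or Control replicate 3 (0.0798 to 0.135).

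By limma, 0 of the genes in the remaining marker lists changed. Of 8 smooth muscle genes, 0 had an unadjusted p under 0.05 and 0 changed by voom. The smallest p-values among them were those of ACTG2 and DES (adjusted p = 0.313 and 0.412). Of 6 goblet cell genes, 3 had an unadjusted p under 0.05 (1 higher and 2 lower) and 0 changed by voom. The goblet cell sum was 622 to 1673 FPKM in SMP and 2289 to 2654 in Control, most of it TFF3 (883 ± 425 FPKM in SMP and 2012 ± 136 in Control, adjusted p = 0.0944), while AGR2 was at 50.5 ± 11.8 FPKM in SMP and 32.9 ± 1.14 in Control (adjusted p = 0.123). Of 6 crypt base genes, 2 were higher and 0 lower at an unadjusted p under 0.05. By voom 1 of them was called higher, against 4.22% of all tested genes. The crypt base sum was 1504 to 2006 FPKM in SMP and 617 to 1099 in Control, mostly OLFM4 (adjusted p = 0.0591), with AXIN2 at an adjusted p of 0.0651. Among the epithelial genes the smallest p-values were those of VIL1 and CDX2 (adjusted p = 0.202 and 0.355), among endothelial genes KDR and EGFL7 (0.452 and 0.491), and the 1 glial gene tested was SOX10 (0.898). The stomach list of parietal and chief cells summed to 1.48 to 2.30 FPKM in SMP and 1.89 to 10.3 in Control, with PGA5 and CBLIF at adjusted p-values of 0.0917 and 0.680; 1 of the 2 had an unadjusted p under 0.05 and 0 changed by voom.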
